A study of Mus musculus with 4 samples.

Results

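The genes described are 55 mouse genes of DNA replication and S phase, taken by symbol from a table of 51905 genes. They were divided by role into 9 subgroups, running from origin recognition through licensing, helicase activation, polymerases, the clamp and its loader, Okazaki fragment processing, nucleotide supply and chromatin replication to the E2F factors. Genes were compared if both lines averaged 10 counts or more over their 2 libraries, which held for 53 of the 55 and for 11928 genes in all. RNA-seq was done on CT26 and MC38, mouse colorectal cancer lines, each infected with lenti-shGFP (the control) or with lenti-shmaurka-1, a single hairpin against Aurora-A, and harvested 48 h after seeding. All 4 libraries are labelled genotype WT, and both arms of each line carried a lentivirus. There was 1 library for each condition, so a difference within a line compares a pair of libraries and has no replicate. The question was whether the replication genes differed between knockdown and shGFP cells of each line, and whether the steps of replication differed alike.

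DNA replication starts from origins bound by the origin recognition complex (ORC), onto which Cdc6 and Cdt1 load the MCM2-7 ring, the inactive form of the replicative helicase. At S phase entry the kinase Cdc7 with its activator Dbf4, together with Cdc45 and the GINS complex, turns the ring into a working helicase, and primase, the polymerases, the sliding clamp PCNA and the clamp loader RFC build the new strands. Many of these genes are transcribed under E2F factors around the G1/S transition, so their RNA in a culture reflects its proliferating cells. In bulk RNA, fewer cells in S phase and less RNA per cell cannot be told apart.

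The targeted gene was checked first. Aurka, which encodes the mitotic kinase Aurora-A, had a level of 268 CPM (counts scaled to library size by TMM) in the CT26 control and 55.7 CPM after knockdown, and of 91.3 and 16.7 CPM in MC38. On the log2 scale CT26 gave a fold change of -2.27 (95% interval -2.36 to -2.17) and MC38 one of -2.44 (-2.60 to -2.30). These intervals are exact binomial intervals on sequenced fragments and cover counting error only. The libraries held 22207769 to 23752267 fragments. The labels call CT26 a fibroblast and MC38 an epithelial cell. The summed level of 9 fibroblast markers was 1612 and 1602 CPM in CT26 and 912 and 799 in MC38, whereas that of 9 epithelial markers was 92.8 and 87.6 in CT26 and 3.26 and 2.76 in MC38. Epcam and Cdh1, defining epithelial genes, did not exceed 0.238 CPM in any of the 4 libraries, including those labelled epithelial. The CT26 epithelial sums came mostly from Krt18, a simple epithelial keratin, at 71.0 and 75.7 CPM, and Krt20, an intestinal keratin, at 20.3 and 10.4 CPM. The fibroblast sums came mostly from Vim (742 and 750 CPM in CT26, 609 and 501 in MC38) and Col1a2 (570 and 584, 56.6 and 56.6). Some markers of that list were higher in MC38, such as Col3a1 (37.9 and 29.1, 56.8 and 55.7) and Pdgfra (10.3 and 9.48, 30.6 and 20.2).

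The promoters of 7 genes are shown because the expression results turn on them. Cdc6, Rrm2 and Rfc5 are the members called in both lines together, and E2f1, E2f2, Uhrf1 and Dbf4 had large differences within a line. No rule fixed this set. It was picked on expression, with the motif matches already known, and it leaves out members with differences as large, such as E2f8. The most upstream start was taken where the table listed more than 1. Each runs 5′ to 3′ on the strand of the gene, from 250 bases before the RefSeq start to 50 bases after it (GRCm38.p6). Capitals mark an E2F motif (TTTCCCGC, TTTCGCGC, TTTGCCGC or TTTGGCGC), a CHR motif (TTTGAA) or a CCAAT box (CCAAT), each searched on both strands, and neighbouring matches can overlap.
Cdc6: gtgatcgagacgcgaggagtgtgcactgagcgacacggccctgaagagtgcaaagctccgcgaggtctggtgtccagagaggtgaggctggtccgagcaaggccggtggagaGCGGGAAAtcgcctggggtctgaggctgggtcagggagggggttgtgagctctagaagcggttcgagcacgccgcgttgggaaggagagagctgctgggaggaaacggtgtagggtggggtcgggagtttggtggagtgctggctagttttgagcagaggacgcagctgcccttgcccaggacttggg
Rrm2: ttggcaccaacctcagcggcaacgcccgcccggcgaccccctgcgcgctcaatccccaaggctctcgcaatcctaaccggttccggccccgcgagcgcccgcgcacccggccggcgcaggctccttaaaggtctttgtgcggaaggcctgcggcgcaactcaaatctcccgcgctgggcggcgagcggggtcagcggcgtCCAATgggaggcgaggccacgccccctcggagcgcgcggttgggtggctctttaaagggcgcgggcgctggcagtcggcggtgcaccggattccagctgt
Rfc5: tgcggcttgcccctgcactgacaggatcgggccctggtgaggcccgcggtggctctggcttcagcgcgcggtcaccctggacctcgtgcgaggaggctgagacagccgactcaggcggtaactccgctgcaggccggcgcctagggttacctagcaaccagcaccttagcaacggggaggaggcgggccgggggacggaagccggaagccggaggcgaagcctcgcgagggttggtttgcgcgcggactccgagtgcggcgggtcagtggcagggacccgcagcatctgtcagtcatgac
E2f1: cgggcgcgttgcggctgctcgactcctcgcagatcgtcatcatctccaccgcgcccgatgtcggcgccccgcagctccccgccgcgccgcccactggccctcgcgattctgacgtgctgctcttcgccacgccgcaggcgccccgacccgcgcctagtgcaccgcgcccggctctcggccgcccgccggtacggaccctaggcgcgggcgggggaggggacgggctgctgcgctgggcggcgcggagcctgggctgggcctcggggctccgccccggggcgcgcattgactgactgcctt
E2f2: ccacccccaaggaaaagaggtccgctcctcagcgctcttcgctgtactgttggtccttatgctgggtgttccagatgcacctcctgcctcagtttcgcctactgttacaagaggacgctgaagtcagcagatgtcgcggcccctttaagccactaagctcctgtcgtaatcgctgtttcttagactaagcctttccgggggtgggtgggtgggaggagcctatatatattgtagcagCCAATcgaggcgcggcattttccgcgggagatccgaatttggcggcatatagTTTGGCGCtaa
Uhrf1: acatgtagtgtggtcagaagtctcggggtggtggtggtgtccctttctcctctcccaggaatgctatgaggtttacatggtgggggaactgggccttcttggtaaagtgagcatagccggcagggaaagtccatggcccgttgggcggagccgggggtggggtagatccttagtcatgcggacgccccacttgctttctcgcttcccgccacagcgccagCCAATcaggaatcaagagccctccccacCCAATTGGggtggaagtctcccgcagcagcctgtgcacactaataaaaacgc
Dbf4: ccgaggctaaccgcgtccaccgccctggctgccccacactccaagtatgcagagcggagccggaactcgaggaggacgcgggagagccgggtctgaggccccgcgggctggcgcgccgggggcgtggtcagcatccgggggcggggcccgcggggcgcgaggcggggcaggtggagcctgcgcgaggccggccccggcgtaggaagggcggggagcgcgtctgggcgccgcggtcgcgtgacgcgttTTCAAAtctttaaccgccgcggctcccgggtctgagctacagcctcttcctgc

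These windows lie for Cdc6 at chr11:98907901-98908200 on the plus strand, for Rrm2 at chr12:24708004-24708303 on the plus strand, for Rfc5 at chr5:117388974-117389273 on the minus strand, for E2f1 at chr2:154569377-154569676 on the minus strand, for E2f2 at chr4:136172024-136172323 on the plus strand, for Uhrf1 at chr17:56303087-56303386 on the plus strand and for Dbf4 at chr5:8422667-8422966 on the minus strand. The E2f1 start of the table lies 466 bases inside the locus of that gene in the deposited files, and the Cdc6 start 351 bases inside its locus, so their windows may not be the promoter in use. An E2F motif was found in 2 of the 7 windows shown, those of Cdc6, 138 bases upstream of the start, and E2f2, 40 bases downstream of it. Uhrf1 holds an E2F motif 185 bases upstream of its other listed start, whose window is not shown. Rrm2, the member with the smallest adjusted p, held a CCAAT box and no E2F motif, and the windows of Rfc5 and E2f1 held none of the 3 motifs.

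Of the 55 genes, 47 had a promoter in the table, and Gins4, Gmnn, Rfc2, Gins2, Pole, Prim2, Mcm4 and Gins1 did not. Counting a gene where any of its listed starts held the motif, as for Uhrf1, an E2F motif was present for 18 of the 47 (38.3%) and for 704 of 27025 genes in the whole table (2.61%). It was found in 6 of the 7 origin licensing genes with an entry (Cdc6, Cdt1, Mcm3, Mcm5, Mcm6 and Mcm7), in 4 of 7 polymerase and primase genes and in 0 of 4 nucleotide supply genes. A CCAAT box was present for 61.7% of members and 41.1% of all genes, and a CHR motif for 19.1% and 20.2%. In CT26 the median log2 fold change was 0.25 over 17 compared members with an E2F motif and 0.17 over 29 without, and in MC38 it was 0.05 over 18 and 0.06 over 29. A match says only that these letters occur in the window.

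After knockdown, the replication genes stood slightly above their shGFP level in CT26 and close to it in MC38. Over the 53 genes, CT26 had a median log2 fold change of 0.18, with 45 above 0 and 8 below, and MC38 one of 0.05, with 34 above and 19 below. Over all genes compared the median was -0.01 in CT26 and -0.00 in MC38, where 49.2% and 49.9% of genes lay above 0. The values of single members ran from -0.28 (Gins1) to 0.55 (Cdc6) in CT26 and from -0.35 (Pole2) to 0.46 (Cdc6) in MC38. The study took genes past a fold of 1.5 for higher or 0.6 for lower in both lines. Applied here to each line alone, on TMM-scaled counts with 1 count added, these thresholds were passed by 0 of 53 members in any direction. Of all genes, 3.2% passed as higher and 2.57% as lower in CT26, and 2.47% and 1.03% in MC38. From the deposited FPKM with nothing added, Cdc6 (6.61 and 9.92) and E2f2 (0.937 and 1.42) lay just above 1.5 in CT26. With a pseudocount of 1 or 0.1 on the FPKM, 0 members did so.

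Counting precision allowed smaller differences to be seen. The 95% interval lay above no change for 35 of 53 members in CT26, where 22.1% of all genes did so, and below it for 1, Gins1, where 21.1% of all genes did so. In MC38 it lay above no change for 20 members, against 22.8% of all genes, and below it for 8, against 22.3%. The share grows with the count of a gene, and members were counted more deeply than most. Restricted to genes averaging 200 counts or more in both lines, 34 of 52 members lay above no change in CT26 beside 28.5% of such genes, and 1 below beside 25.2%. In MC38 these were 19 beside 27.4% and 8 beside 26.4%. The fold thresholds were passed by 0 of these 52 members, beside 1.33% of such genes higher and 0.329% lower in CT26, and 0.426% and 0.0975% in MC38. The plot of log2 fold change by gene shows the subgroups in both lines.

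**Figure D1:**
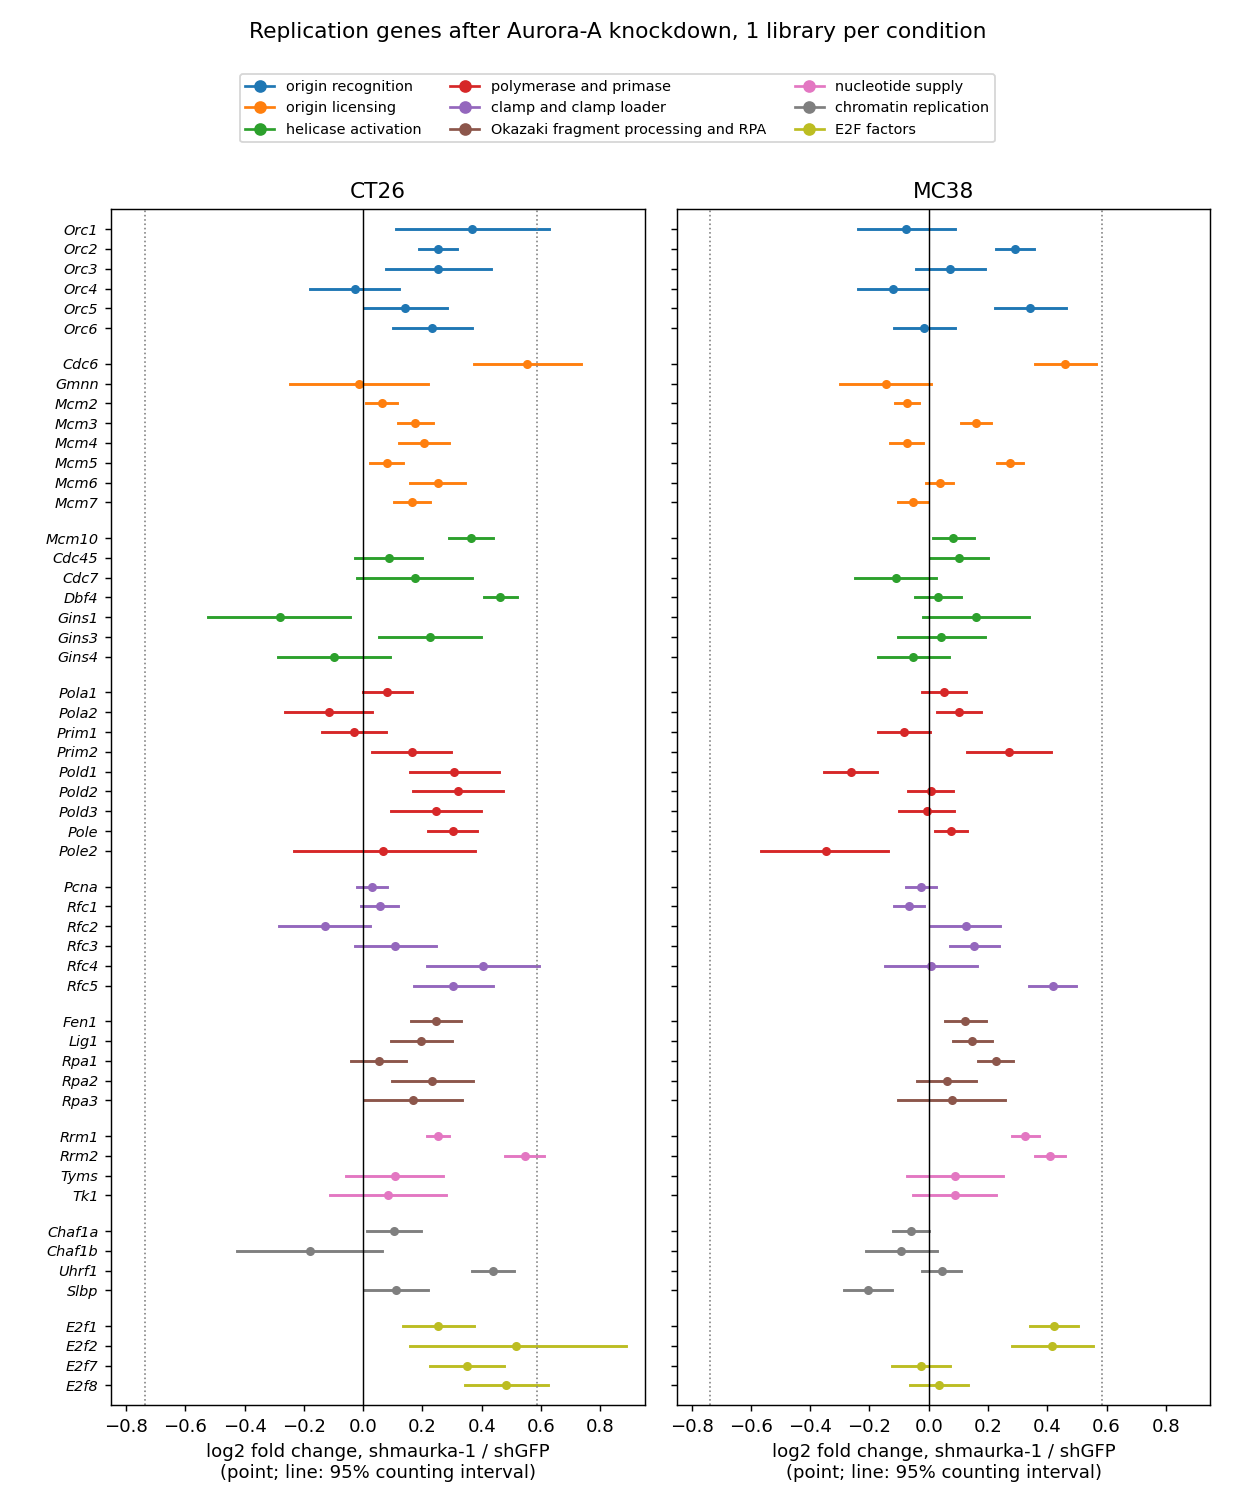
Log2 fold change of shmaurka-1 over shGFP for 53 replication genes in CT26 (left) and MC38 (right), with points for the TMM-scaled value, lines for the 95% counting interval and dotted lines for the fold thresholds of 1.5 and 0.6. All points lie inside the thresholds in both lines, and 45 points in CT26 and 34 in MC38 lie right of 0.

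A total of 27 of the 55 members sit in a locus that the files share with at least 1 other gene, so that part of their estimated count depends on how reads were divided. Among the 28 members alone in their locus, the interval lay above no change for 18 in CT26, beside 22.1% of all genes, and for 9 in MC38, beside 22.8%. It lay below no change for 1 in CT26, beside 21.1%, and for 2 in MC38, beside 22.3%. Cdt1, the licensing factor that loads MCM2-7, and Gins2, a GINS subunit, were not compared. Both lie in a merged locus of 210 genes (chr8:119910359-124345724, GRCm38), and all 210 were listed at 0 in both CT26 libraries, among them Rpl13, Cox4i1 and Aprt, which most cells use. These zeros are therefore given as listed and not as absence of RNA. In MC38, Cdt1 had 4924 fragments in shGFP and 5009 in shmaurka-1, a log2 fold change of 0.05 (-0.00 to 0.11), and Gins2 had 724 and 689.

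Rrm2, Cdc6 and Rfc5 rose in the test of the effect common to both lines, and no member was called lower. This test (edgeR quasi-likelihood, cell line as block, Benjamini-Hochberg over 11928 genes) uses the lines as the only replication and leaves 1 residual degree of freedom. It called 3 of 53 members higher, where 1.67% of all genes were called, and 0 lower, where 1.12% were. At an unadjusted p under 0.05, 12 members were higher, beside 6.56% of all genes, and 0 lower, beside 5.76%. DESeq2 called 0 members higher and 0 lower. Over all 11928 genes it called only 17 higher and 11 lower, so the 0 says little about the members.

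Rrm2 encodes the small, cell cycle regulated subunit of ribonucleotide reductase, which makes deoxyribonucleotides. Its level was 154 CPM in the CT26 control and 225 CPM after knockdown, and 226 and 301 CPM in MC38. The shmaurka-1 library was the higher of the pair in both lines, with log2 fold changes of 0.55 (0.48 to 0.61) and 0.41 (0.36 to 0.46). The common log2 fold change was 0.48 ± 0.10 (SE), with an edgeR adjusted p of 0.000157. Rrm2 is alone in its locus (chr12:24708240-24714146).

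Cdc6, the ATPase that recruits the MCM2-7 ring to ORC, stood at 20.5 and 30.1 CPM in CT26 and at 53.2 and 73.2 in MC38, shGFP first. Its log2 fold changes were 0.55 (0.37 to 0.74) in CT26, close to that of Rrm2, and 0.46 (0.36 to 0.56) in MC38. Its common value was 0.50 ± 0.13 (SE; edgeR adjusted p = 0.00468), and it too is alone in its locus (chr11:98907800-98923940). Rfc5, a small subunit of the clamp loader, stood at 40.6 and 50.2 in CT26 and at 91.0 and 122 in MC38. Its common log2 fold change was 0.36 ± 0.11 (SE; edgeR adjusted p = 0.0400), and its locus (chr5:117357303-117389047) also covers Wsb2. The Rfc5 call was lost under 6 of the alternatives tried, among them DESeq2 (adjusted p = 0.748), and Rrm2 and Cdc6 lost theirs under DESeq2 (adjusted p = 0.0685 and 0.326) and without the block.

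**Figure D2:**
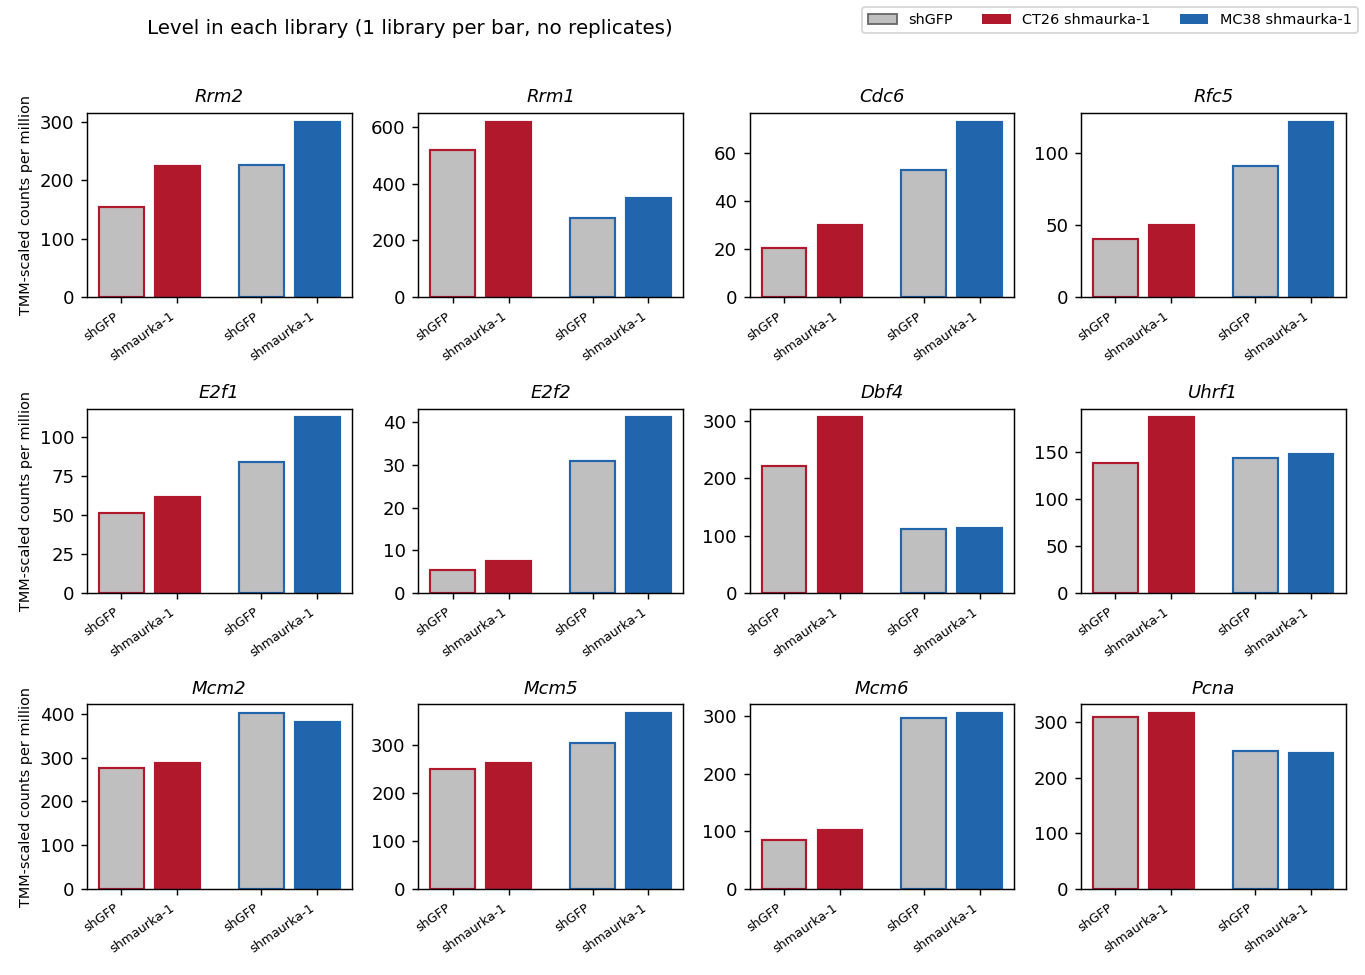
TMM-scaled CPM of 12 replication genes in each library, shGFP in grey and shmaurka-1 in colour, with 1 library per bar, no error bar and an axis from 0 in each panel. Rrm2, Rrm1, Cdc6, Rfc5, E2f1 and E2f2 were higher after knockdown in both lines, whereas Dbf4 and Uhrf1 differed mainly in CT26 and Pcna in neither line.

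In origin recognition, the median over the ORC subunits was 0.24 in CT26 and 0.03 in MC38 (log2 fold change). The MC38 median ran from 0.01 to 0.07 over the alternatives. The interval lay above no change for 5 of 6 in CT26, beside 22.1% of all genes, and 2 of 6 in MC38, beside 22.8%. It lay below no change for 1 in MC38, Orc4, beside 22.3%. Orc1, the ATPase subunit whose level varies with the cell cycle, stood at 10.8 and 13.9 CPM in CT26 and at 25.5 and 24.2 in MC38. CT26 gave a log2 fold change of 0.37 (0.11 to 0.63) and MC38 -0.08 (-0.24 to 0.09). Orc5, another ATPase-fold subunit, gave 0.14 (0.00 to 0.28) in CT26 and 0.34 (0.22 to 0.46) in MC38. Neither was called in the common test.

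In origin licensing, all 6 genes of the MCM2-7 ring lay above no change in CT26, beside 28.5% of genes with 200 counts or more. In MC38 2 lay above it, beside 27.4%, and 3 below, beside 26.4%. The ring is counted more deeply than most genes, with a median of 5159 mean counts in CT26 and 6215 in MC38 against 776 and 776 over all genes. In CT26 the 6 became 5 under total count scaling and under a 200-count minimum, where Mcm2 no longer lay above no change. The median log2 value over the ring was 0.17 in CT26 and -0.01 in MC38, where the median of the licensing genes ran from -0.03 to 0.04 over the alternatives. Mcm6 stood at 85.5 and 102 CPM in CT26 and at 297 and 305 in MC38, with log2 fold changes of 0.25 (0.16 to 0.35) and 0.04 (-0.01 to 0.08). Mcm5 stood at 250 and 264 in CT26 and at 304 and 367 in MC38, with 0.08 (0.02 to 0.13) and 0.27 (0.23 to 0.32). These subunits of a single hexamer thus differed by unlike amounts, with Mcm6 further above shGFP in CT26 and Mcm5 in MC38.

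Mcm3 gave 0.18 (0.12 to 0.23) in CT26, or 0.30 from the deposited FPKM, and 0.16 (0.11 to 0.21) in MC38. Mcm2, Mcm4 and Mcm7 lay on opposite sides of no change in the lines. Mcm2 gave 0.06 (0.01 to 0.12) in CT26 and -0.07 (-0.11 to -0.03) in MC38. Mcm4 gave 0.20 (0.12 to 0.29) and -0.07 (-0.13 to -0.02), and Mcm7, whose locus holds 6 other genes, 0.17 (0.11 to 0.23) and -0.05 (-0.10 to -0.00). Gmnn, the inhibitor of Cdt1, gave -0.01 (-0.25 to 0.22) and -0.14 (-0.30 to 0.01). None of these was called in the common test.

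Among the helicase activation genes, Dbf4 and Mcm10 stood out in CT26. Dbf4, the regulatory subunit of the Cdc7 kinase, had 222 CPM in CT26 shGFP and 306 in shmaurka-1, and 111 and 113 in MC38. This gave a log2 fold change of 0.46 (0.41 to 0.52) for CT26 and 0.03 (-0.04 to 0.11) for MC38. Cdc7 itself gave 0.17 (-0.02 to 0.37) and -0.11 (-0.25 to 0.02), so neither of its intervals left out no change. Mcm10, which helps to activate the helicase, gave 0.36 (0.29 to 0.44) and 0.08 (0.01 to 0.15). Gins1, a GINS subunit with 336 and 254 fragments in CT26, was the only member whose interval lay below no change there, at -0.28 (-0.52 to -0.04), and it gave 0.16 (-0.02 to 0.34) in MC38. The median of the subgroup was 0.17 in CT26 and 0.04 in MC38.

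The polymerase and primase genes had medians of 0.16 in CT26 and 0.01 in MC38, with 5 of 9 above no change in CT26, beside 22.1% of all genes. In MC38 3 of 9 lay above it, beside 22.8%, and 2 below, beside 22.3%. The CT26 median was 0.09 from the deposited FPKM and 0.11 without members that share a locus, and the MC38 median ran from -0.06 to 0.01 over the alternatives, with no stable sign. Pold1, the catalytic subunit of polymerase delta, had 699 and 796 fragments in CT26 and 2248 and 1835 in MC38. It gave 0.31 (0.16 to 0.46) in CT26 and -0.26 (-0.35 to -0.17) in MC38, the widest separation among members with opposite directions. Pole2, the second subunit of polymerase epsilon, gave 0.07 (-0.23 to 0.38) and -0.35 (-0.56 to -0.14), with 178 to 419 fragments in a library and 7 other genes in its locus. Pold2, an accessory subunit of polymerase delta, gave 0.32 (0.17 to 0.47) and 0.01 (-0.07 to 0.08), but only 0.09 in CT26 from the deposited FPKM.

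Of the clamp and its loader, Pcna, the sliding clamp, was nearly level, with 6613 and 6212 fragments in CT26 and 6261 and 6024 in MC38. The log2 fold changes were 0.03 (-0.02 to 0.08) and -0.03 (-0.08 to 0.02), so its intervals leave out changes as large as those of Rrm2. Rfc4 gave 0.40 (0.22 to 0.59) in CT26 and 0.01 (-0.15 to 0.16) in MC38, with 7 other genes in its locus. The subgroup had medians of 0.08 in CT26 and 0.07 in MC38, which ran from 0.06 to 0.11 and from 0.04 to 0.11 over the alternatives. The genes of Okazaki fragment processing and of RPA, the single-strand binding complex, had medians of 0.20 and 0.12, with 5 of 5 above 0 in both lines, beside 49.2% of all genes in CT26 and 49.9% in MC38. Fen1, the flap nuclease, gave 0.25 (0.16 to 0.33) and 0.12 (0.05 to 0.19), and Lig1, the ligase that joins the fragments, 0.20 (0.09 to 0.30) and 0.15 (0.08 to 0.21).

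The nucleotide supply genes had medians of 0.18 in CT26 and 0.21 in MC38. Without Rrm1 and Tk1, which share a locus with other genes, these were 0.33 and 0.25, so the order of the lines turned. In both lines the interval lay above no change for Rrm1 and Rrm2 and for no other of the 4 genes. Of all genes, 22.1% lay above no change in CT26 and 22.8% in MC38. Rrm1 and Rrm2 were counted more deeply, with 3291 to 12134 fragments in a library against 432 to 854 for Tyms and Tk1. Rrm1, the large subunit of ribonucleotide reductase, had 519 and 618 CPM in CT26 and 278 and 348 in MC38, with log2 fold changes of 0.25 (0.21 to 0.29) and 0.33 (0.28 to 0.37). Its common value of 0.29 ± 0.09 (SE) missed the threshold (edgeR adjusted p = 0.0543) and passed it under limma (0.0443). Tyms, thymidylate synthase, gave 0.11 (-0.06 to 0.27) and 0.09 (-0.07 to 0.25), and Tk1, thymidine kinase, 0.08 (-0.11 to 0.28) and 0.09 (-0.05 to 0.23). The intervals of Tyms and Tk1 held no change in both lines, and from the deposited FPKM with a pseudocount of 1 their values were 0.03 and -0.08 in CT26 and 0.21 and 0.09 in MC38.

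Among the genes of chromatin replication, Uhrf1, which guides maintenance DNA methylation, had 137 and 186 CPM in CT26 and 143 and 148 in MC38. It gave 0.44 (0.37 to 0.51) in CT26, or 0.33 from the deposited FPKM, and 0.04 (-0.02 to 0.11) in MC38. Slbp, the histone mRNA binding protein, gave 0.11 (0.00 to 0.22) and -0.21 (-0.29 to -0.13). Chaf1a and Chaf1b, subunits of the chromatin assembly factor CAF-1, gave 0.10 (0.01 to 0.19) and -0.18 (-0.43 to 0.07) in CT26, and -0.06 (-0.12 to 0.00) and -0.09 (-0.21 to 0.03) in MC38.

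The 4 E2F factors had medians of 0.42 in CT26 and 0.23 in MC38. The MC38 median lies midway between a pair of genes near 0.42 and a pair near 0, and it was 0.03 under a 200-count minimum, which drops E2f2, and 0.42 without the members that share a locus, E2f7 and E2f8. The activators E2f1 and E2f2 were higher in both lines. E2f3, an activator outside these 4 factors, gave 0.34 (0.23 to 0.46) in CT26 and 0.05 (-0.07 to 0.17) in MC38. The MC38 interval of E2f3 held no change, so activators as a class were not higher in both lines. E2f1 had 51.4 and 61.3 CPM in CT26 and 84.0 and 113 in MC38, with log2 fold changes of 0.25 (0.13 to 0.37) and 0.42 (0.34 to 0.50). E2f2 had 113 and 149 fragments in CT26 and 777 and 1016 in MC38, with 0.52 (0.16 to 0.89) and 0.42 (0.28 to 0.55). The repressors E2f7 and E2f8 were higher in CT26, at 0.35 (0.23 to 0.47) and 0.48 (0.34 to 0.62), and gave -0.03 (-0.12 to 0.07) and 0.03 (-0.06 to 0.13) in MC38. E2f8 shares its locus with 10 other genes. E2f1 and E2f2 were not called in the common test (edgeR adjusted p = 0.0582 and 0.0783).

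Set side by side, the lines shared part of the pattern. The interval lay above no change in both lines for 15 members, where 8.61% of all genes did so, and below it in both for 0, where 7.47% did. It lay on opposite sides for 5 members, Mcm2, Mcm4, Mcm7, Pold1 and Slbp, beside 7.44% of all genes. Mcm2 and Slbp left this group under total count scaling and under a 200-count minimum, so that 3 remained, and Mcm7 left it without a filter on low counts. Slbp also left under a 50-count minimum, and with DESeq2 size factors Chaf1a joined, which made 6. The intervals of the lines did not overlap for 23 members. The CT26 value was the higher for 20 of these, beside 13.1% of all genes, and the lower for 3, beside 12.9%. With 1 library for each condition the difference between lines could not be tested, and these counts compare libraries.

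**Figure D3:**
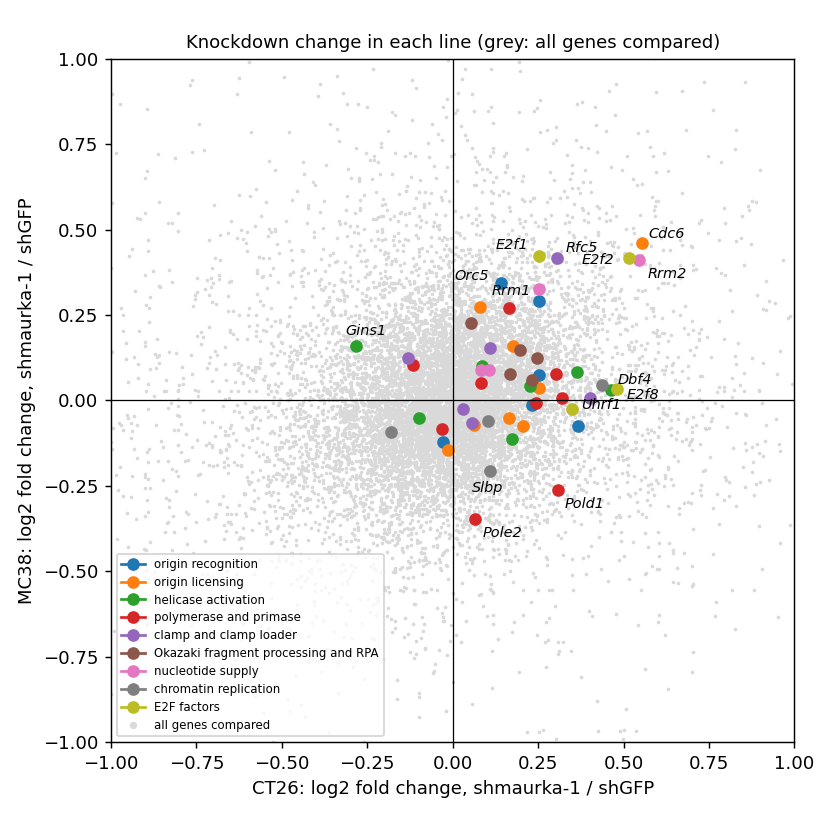
Log2 fold change of shmaurka-1 over shGFP in CT26 (x axis) against MC38 (y axis), with the 53 replication genes coloured by subgroup and all 11928 genes compared in grey, those beyond 1 on an axis lying outside the plot. Cdc6, Rrm2 and E2f2 lie at the upper right, Dbf4, Uhrf1 and E2f8 lie right of 0 near the horizontal line, and Pold1 lies at the lower right.

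Other genes of the pathway were taken from a list of 49, and their log2 fold changes had medians of 0.12 (CT26) and 0.00 (MC38). The interval lay above no change for 21 in CT26, beside 22.1% of all genes, and below it for 6, beside 21.1%. In MC38 it lay above no change for 9, or 18.4% of the list beside 22.8% of all genes, and below it for 14, or 28.6% beside 22.3%, whereas more members lay above than below there. The fold thresholds were passed by 2 genes of the list as higher and 1 as lower in CT26 (4.08% and 2.04%, beside 3.2% and 2.57% of all genes), and by 0 and 1 in MC38 (beside 2.47% and 1.03%). Pclaf, a PCNA-binding protein, gave 0.88 (0.70 to 1.07) and Ticrr, an origin firing factor, 0.59 (0.47 to 0.71) in CT26. Pold4, a small subunit of polymerase delta with 7 to 33 fragments in a library, gave -0.74 (-2.15 to 0.45) in CT26, an interval that holds no change, and -2.05 (-3.63 to -1.01) in MC38. These genes were chosen after their values were seen. Dctd, a deaminase that feeds thymidylate synthesis, was called in the common test at 0.42 ± 0.13 (SE; edgeR adjusted p = 0.0428), 1 of 49 higher, beside 1.67% of all genes, and 0 lower, beside 1.12%. The Dctd call was lost under 7 of the 10 alternatives tried, among them DESeq2 (adjusted p = 0.843). In contrast, 26 genes of G2 and M phase had a median of 0.70 in CT26 and -0.09 in MC38. The interval lay above no change for all 26 of these in CT26, beside 22.1% of all genes. In MC38 it lay above for 4, beside 22.8%, and below for 13, beside 22.3%. The part of these mitotic genes in the replication values of CT26 was not tested.

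Between the lines themselves, most replication genes were lower in CT26. In the same edgeR fit, with treatment as covariate, 37 of 53 members were called lower in CT26 than in MC38, beside 36.7% of all genes, and 6 higher, beside 36.6%. The 2 libraries of a line are its shGFP and shmaurka-1 cultures, so these calls do not measure spread between like cultures. The paper grew CT26 in RPMI-1640 and MC38 in DMEM, so line and medium cannot be told apart. The median log2 difference was -0.53, beside -0.00 over all genes. E2f2 (-2.49 ± 0.16, SE), Chaf1b (-1.75 ± 0.14) and Pold2 (-1.70 ± 0.11) were the furthest below. Dbf4 (1.22 ± 0.10), Rrm1 (0.87 ± 0.09) and Rpa3 (0.52 ± 0.14) were the furthest above, all 6 with an edgeR adjusted p of 0.000419 or less. Total count scaling moves every gene by -0.32 in this comparison and gave 45 lower and 2 higher, with 5858 lower and 3030 higher over all genes against 4382 and 4364. Within a line the same change of scaling moved values by only -0.02.

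**Figure D4:**
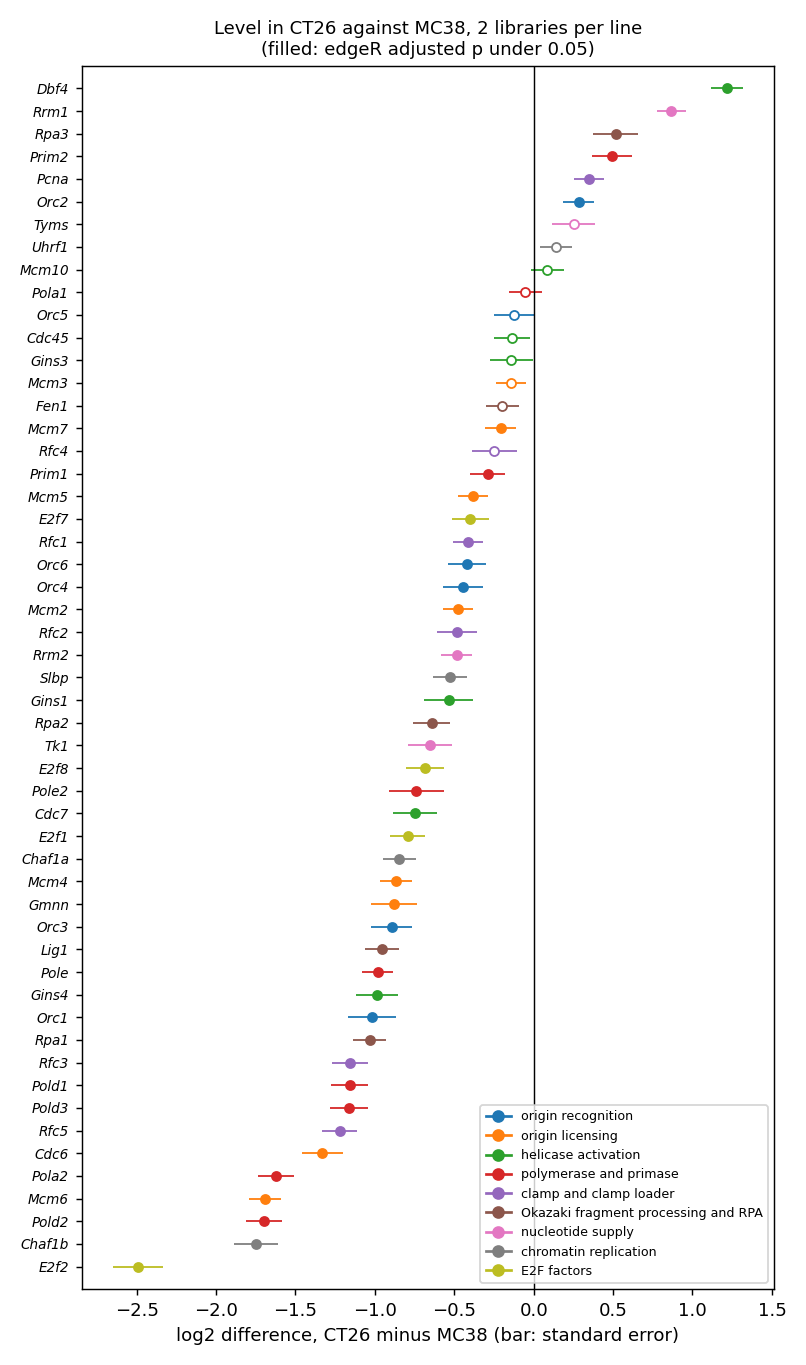
Log2 difference of level, CT26 minus MC38, for 53 replication genes in order of size and coloured by subgroup, with bars for the standard error derived from the edgeR F statistic and filled points for an adjusted p under 0.05. Points left of 0 are lower in CT26, with 37 filled on that side and 6 on the other.

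Per transcript length, on the deposited FPKM scale, the order of levels was alike at its ends. Pcna was the highest member in all 4 libraries, at 288 and 290 FPKM in CT26 and 223 and 223 in MC38. Among the members above 0, 53 in CT26 and 55 in MC38, E2f2 was the lowest, with Orc1 next at 3.77 to 9.33. E2f2 stood at 0.937 and 1.42 in CT26 and 5.48 and 7.22 in MC38. Cdt1 and Gins2 were listed at 0 in CT26. The median level over the members above 0 was 24.6 and 27.8 FPKM in CT26 and 32.6 and 36.3 in MC38. Between these ends the order differed by line, since Rrm1 was next to Pcna in CT26 (161 and 189) and Rrm2 in MC38 (130 and 172).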

How the data were processed

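RNA was sequenced as 1 strand-specific library for each of 4 conditions. According to the labels the submitters used Trimmomatic 0.36, HISAT2, Cufflinks 2.2.1 and Cuffdiff. For each of 51905 genes and each library, the authors deposited the estimated count, and also its FPKM, which the authors scaled to transcript length and depth. The labels name GRCm39, but 99.8% of 18099 gene loci overlapped the gene of that name in GRCm38.p6 and 9.55% in GRCm39, so coordinates are given as GRCm38. Of the nonzero estimated counts, 96.5% to 97.6% were whole multiples of a step in each library, within 0.05, and fragments were recovered by dividing by it.

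Fold changes are ratios of TMM-scaled estimated counts with 1 count, scaled to library size, added. Genes averaging 10 counts or more in both lines were compared. CPM are counts scaled to the library total after TMM. Intervals are exact conditional binomial (Clopper-Pearson) at the 95% level on fragments. Counts rounded to whole numbers were tested in edgeR 4.0.16 (R 4.3.3) over all 4 libraries with terms for line and knockdown, 1 residual degree of freedom and infinite prior degrees of freedom, so the spread is taken from all genes. The SE given is the size of the log2 value over the square root of the F statistic of this test. It thus rests on the spread shared by all genes and not on that of the gene alone. The script was tested on simulated data. Alternatives were total count and DESeq2 scaling, the added count, the filter, the deposited FPKM values, leaving out members that share a locus, DESeq2 1.42.0, limma 3.58.1, no block, leaving out a line or treatment and, chosen after seeing the data, recovered fragments.

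The members, subgroups and lists were chosen with earlier results of these data known. Genes named were, in each line, the up to 8 members with the largest change whose interval excluded no change at a mean of at least 50 counts, all called in the common test, the MCM2-7 ring and nucleotide supply, the 3 furthest each way between lines, and up to 5 called other replication genes. Further members named were chosen after their values were seen. No rule fixed the printed promoters. After the motif search the set was changed once to favour genes with an E2F motif, and it was then set back to the genes chosen on expression.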

Additional observations from a re-analysis of the deposited data

Results flagged for a closer look

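For 5 members the library pair of CT26 differed in one direction and that of MC38 in the other, with both 95% counting intervals leaving out no change. The log2 fold changes in CT26 and MC38 were 0.06 and -0.07 for Mcm2, 0.20 and -0.07 for Mcm4, and 0.17 and -0.05 for Mcm7. They were 0.11 and -0.21 for Slbp and 0.31 and -0.26 for Pold1. The difference between lines was not tested, since each condition had 1 library, and 7.44% of all genes met the same condition. Mcm2 and Slbp no longer met it under total count scaling or a 200-count minimum, which left 3 members, and 2 members, Mcm2 and Mcm4, met it among those alone in their locus.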

How the results depend on the processing

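Of 313 alternative values of the main counts and medians, 299 were counts within 1.5 times the main count or medians inside the 95% interval of the main median, which for a small subgroup is the range of its genes. The medians of small subgroups could therefore hardly leave it. No value was scored as reversed, but only a median whose main interval left out 0 could be. Medians near 0 did change sign in MC38, as for origin licensing (-0.03 to 0.04) and polymerase and primase (-0.06 to 0.01). The cell line pairs the libraries. Without the replicate block, 0 members were called in the common test in place of 3, and DESeq2 called 0. Without CT26 the common median log2 fold change was 0.0524 and without MC38 it was 0.176. Leaving out members that share a locus gave 18 members above no change in CT26, 9 above and 2 below in MC38, 7 above in both lines and 2 in opposite directions, because 28 members remained. Total count scaling gave 2 members below no change in CT26, 3 in opposite directions and 2 called higher in CT26 than in MC38. A minimum mean of 200 counts gave 3 in opposite directions. The deposited FPKM with a pseudocount of 0.1 gave an E2F factor median of 0.54 in CT26. Apart from the changes in members compared, the cause was not tested. Over all genes the common test called 199 higher and 134 lower, DESeq2 17 and 11, a minimum of 50 counts 63 and 38, a minimum of 200 counts 103 and 68, and no block 0 and 0, with 13 genes at an unadjusted p under 0.05. Counting error alone is covered by the intervals, and spread between cultures is unknown within a line.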
